A study of Homo sapiens with 6 samples.

Results

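ETS transcription factors share a winged helix-turn-helix domain that reads a short DNA core, GGAA. Messenger RNA of 10 of them was followed in A375. This established melanoma line, human and kept in culture, carries an activating BRAF mutation. The members are all probes of the deposited intensity table that the platform annotation gives to ETV1, ETV4, ETV5, ETV6, ETS1, ETS2, ELK1, ELK3, ELK4 or ELF1. This gave 17 of the 48107 probes and 10 of the 20044 genes named on the array. ETV1, ETV4 and ETV5 form the PEA3 group and are set beside the other 7. For 24 h the cells had either DMSO, the drug's solvent (3 samples), or vemurafenib, which blocks mutant BRAF, at 3 µM (3 samples). Nothing else separates the groups in the labels, both come from the same line, and each sample was hybridised to 1 bead array. The labels leave 1 sample of each group unnumbered and number the others 1 and 2. Whether cultures were separate is not stated, so the spread behind each p-value may be only technical.

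In cells with active RAF, MEK and ERK kinases, ERK relieves the genes of the PEA3 group from the repressor Capicua (CIC), and the ubiquitin ligase COP1 with its partner DET1 marks PEA3 proteins for destruction. ELK1, ELK3 and ELK4, the ternary complex factors, bind DNA with serum response factor (SRF) and are themselves phosphorylated by ERK, as are ETS1 and ETS2. ETV6 is mainly a repressor, and ELF1 belongs to a further branch of the family that was first studied in lymphoid cells.

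Bead arrays give 1 signal per probe, and signals of different probes cannot be ranked against each other. Median signals were at most 94.5 intensity units per array over an inferred background of 85.0 to 88.3, and 18370 to 20044 probes per array were detected at a detection p under 0.01. In each group the sample numbered 2 was the most distant: its log2 differences from the other samples had SDs of 0.534 to 0.556, against 0.298 and 0.321 between the unnumbered and 1 samples. Of 6 measured pigment-cell markers, SOX10 and MITF were detected, and MITF rose by 0.75 (limma adjusted p = 0.0333). The MITF call held in 10 of 17 alternative treatments of the data, and in 1 of the 6 fits that left out a single sample. Of the markers of other cell types, LUM and DCN (fibroblasts), KRT14 and KRT10 (keratinocytes) and CD68 and CD14 (leukocytes) were detected and 0 of 5 endothelial markers were. The mean intensity per probe of the fibroblast markers was 87.7 to 93.2 with DMSO and 91.9 to 112 with vemurafenib, close to background. DCN rose (limma adjusted p = 0.0231). Its call held in 10 of the 17 alternatives and in 2 of the 6 fits without a single sample, and was lost without background correction. LUM, with a change of 1.16, did not pass (limma adjusted p = 0.0694). It passed with the replicate number as a block (adjusted p = 0.00865) and without vemurafenib sample 2. The keratinocyte markers were at 313.8 to 441.7 and 367 to 460.5 and the leukocyte markers at 172.8 to 235.6 and 202.3 to 286.2, beside 201.7 to 281 and 212.8 to 349.3 for the pigment-cell markers. These means do not describe every marker of a list. In raw intensity KRT10 read 1011 to 1566 and KRT14 85.8 to 195, CD68 461 to 1565 and CD14 96.6 to 111. SOX10 read 941 to 2082 and MITF 126 to 192. Of these keratinocyte and leukocyte genes 0 of 4 passed in limma, with 0 at an unadjusted p under 0.05, and CD68 passed with the block (adjusted p = 0.0467). The part of such differences in the results below was not tested.

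Both PEA3 genes that could be measured fell steeply, and ETV1 was not detected in either group. ETV4 changed by -3.33 ± 0.20 (SE) and ETV5 by -3.25 ± 0.19 (SE) on the log2 scale, which are falls of 10.1-fold and 9.53-fold. In bulk RNA, fewer cells with a transcript and less of it per cell cannot be told apart. None of the other 7 listed ETS genes was called lower: ELF1 rose by 0.80 ± 0.18 (SE), and ETV6, ETS1, ETS2, ELK1, ELK3 and ELK4 did not pass the test. Changes are vemurafenib minus DMSO in normalised log2 intensity, tested with limma across all 18747 detected probes, and a gene was called at a Benjamini-Hochberg adjusted p under 0.05. A gene with several probes is represented by its brightest. At this threshold 16% of the 11220 genes tested were called, 7.95% lower and 8.09% higher. With the replicate number as a block, where 29.8% of genes were called, the members' calls were the same: ETV4 and ETV5 lower and ELF1 higher.

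ETV4 lies on chromosome 17 (GRCh38.p14, 43527846 to 43546340), and 2 probes read it. The first (ILMN_1753830) read 8.02, 8.44 and 8.48 in the DMSO samples unnumbered, 1 and 2, and 4.78, 5.19 and 4.98 in the vemurafenib samples in the same order. In units of raw intensity these were 316, 390 and 454 with DMSO and 98.9, 107 and 101 with vemurafenib, so the treated signals lay just above background. All 3 treated samples were far below all 3 controls, with a gap of 2.83 on the log2 scale between the nearest samples. Means were 8.31 ± 0.26 and 4.98 ± 0.21 (SD, n = 3 each), with an adjusted p of 5.49e-04 in limma. The second ETV4 probe (ILMN_2341661) gave 7.98, 8.12 and 8.40 against 4.61, 4.27 and 5.04, a change of -3.53 ± 0.23 (SE; limma adjusted p = 5.98e-04). Its groups were likewise wide apart. With vemurafenib the first probe was detected on 2 of 3 arrays and the second on 1, so both folds are approximate and depend on how background is handled. Without background correction the changes of the first and second probes were -1.93 and -1.93.

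The main probe of ETV5 (chromosome 3, 186046314 to 186109089) stayed detected on every array. It read 9.99, 9.76 and 9.58 with DMSO and 6.73, 6.29 and 6.56 with vemurafenib (ILMN_1739222), with raw intensities of 1050, 893 and 923 against 198, 149 and 162. The groups did not overlap, with means of 9.78 ± 0.20 and 6.53 ± 0.23 (SD, n = 3 each) and an adjusted p of 5.49e-04 in limma. The second ETV5 probe (ILMN_1723260) fell by 2.38 ± 0.20 (SE) from values of 7.04, 6.78 and 6.92 to 4.81, 4.21 and 4.58 (limma adjusted p = 0.00123). It was detected on 1 of 3 treated arrays, and its change was -1.08 without background correction, against -2.54 for the main probe.

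With the background correction used here, the main probes of ETV4 and ETV5 changed by similar amounts in each numbered pair of samples. The difference within the unnumbered, 1 and 2 pairs was -3.24, -3.25 and -3.50 for ETV4 and -3.25, -3.48 and -3.02 for ETV5. Without background correction the changes of these probes were -1.93 and -2.54, so the likeness in size depends on how background is handled. All 4 detected PEA3 probes kept their call in each of 17 alternative treatments of the data, including the comparison of 2 samples with 2 in which the unnumbered and 1 samples were averaged. In that comparison 26 genes were called in all, and the adjusted p of both main probes was 0.0388. An exact two-sided permutation test of the samples gave p = 0.1, the smallest that 3 samples against 3 allow, for ETV4 and ETV5 and equally for the main probes of ETS1, ELK4 and ELF1.

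**Figure D1:**
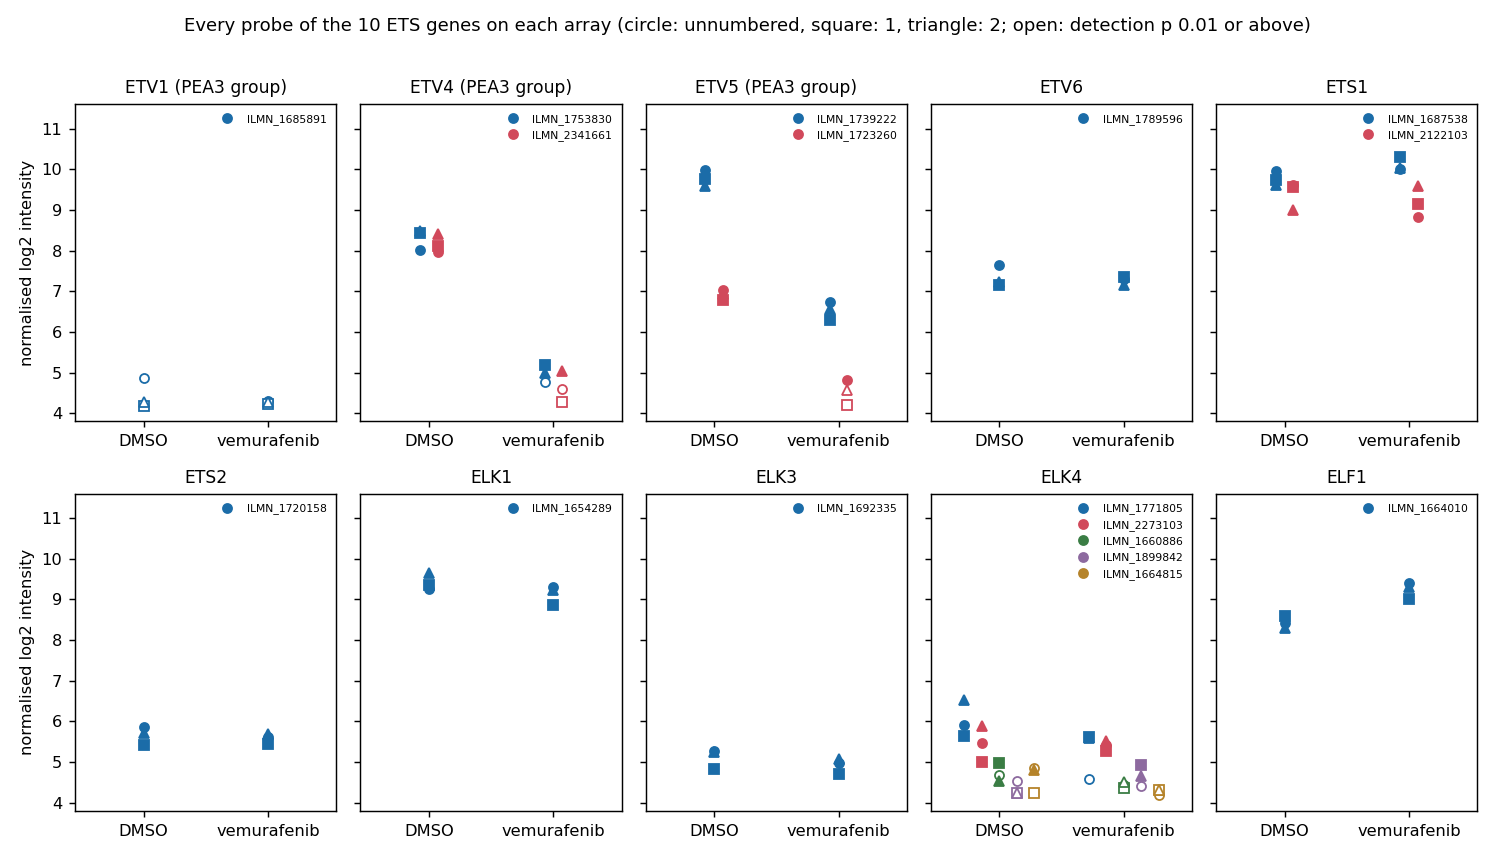
Normalised log2 intensity (vertical axis) of all 17 probes of the 10 ETS genes in the DMSO and vemurafenib samples. Each colour is a probe, each shape a sample (circle unnumbered, square 1, triangle 2), and open symbols have a detection p of 0.01 or above; the detected PEA3 probes change by -3.53 to -2.38 while the other kept probes change by -0.76 to 0.80.

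ETV1 (chromosome 7, 13891229 to 13991425), the third PEA3 gene, has 1 probe (ILMN_1685891). Its log2 values were 4.86, 4.18 and 4.28 with DMSO and 4.30, 4.23 and 4.27 with vemurafenib, and its raw intensities of 78.6 to 99.9 and 81.3 to 85.6 lay around the background mean. The gene was not detected on any of the 6 arrays, was left out of the test, and gives no fold change. The groups overlapped. Of the PEA3 group, 2 of 3 genes were thus tested and both were called lower, beside 7.95% of all genes.

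Promoter windows in the RefSeq table (build GRCh38.p14, 250 bases before to 50 after a start site) were found for 7 of the 10 members, 16 windows in all. ETV4, ETV5 and ETS1 had no window there and were not searched. The 16 windows were searched on both strands for an ETS site, CCGGAAGT, and for the bare core, GGAA, which that site contains. They were also searched for the octamers that CIC is known to bind, TGAATGAA, TCAATGAA, TGAATGGA and TCAATGGA. The core was present in 15 of 16 windows and in 95.5% of all 35116 windows of the table. The full ETS site stood in 1 member window, that of ELK4, and in 4.14% of all windows. A CIC octamer stood in 1 of the 16 member windows, which is 1 of the 6 windows of ETV1, and in 3.77% of all windows. These 2 windows are shown because they carry a motif of the factors described here. Capitals mark the match, and the arrays measured no binding.
ETV1 promoter, chr7:13991376-13991675, minus strand: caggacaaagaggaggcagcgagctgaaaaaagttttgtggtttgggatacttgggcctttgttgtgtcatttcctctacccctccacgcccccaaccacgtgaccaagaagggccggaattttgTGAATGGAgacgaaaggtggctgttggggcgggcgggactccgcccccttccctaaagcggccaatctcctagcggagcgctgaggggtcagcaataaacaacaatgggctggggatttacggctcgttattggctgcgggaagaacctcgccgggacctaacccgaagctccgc
ELK4 promoter, chr1:205631962-205632261, minus strand: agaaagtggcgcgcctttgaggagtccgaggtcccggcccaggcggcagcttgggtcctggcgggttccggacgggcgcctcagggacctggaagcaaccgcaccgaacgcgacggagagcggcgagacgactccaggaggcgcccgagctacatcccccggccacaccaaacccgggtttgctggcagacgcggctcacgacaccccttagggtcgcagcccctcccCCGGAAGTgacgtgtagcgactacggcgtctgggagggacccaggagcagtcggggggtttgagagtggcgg

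The other 7 listed ETS genes were all tested, with 9 probes that passed the detection filter. Their changes ran from -0.76 to 0.80 with a median of -0.08, beside a median of 0.05 over all genes tested and -3.29 for the 2 PEA3 genes. Of these 7 genes, 1 was called (14.3%), beside 16% of all genes. At the level of probes, the 4 PEA3 probes changed by -3.53 to -2.38 and the 9 others by -0.76 to 0.80, so the ranges do not meet. No p-value is given for this contrast, because the members were chosen with earlier results of these data known. The groups of samples were wholly separate for 4 of 4 PEA3 probes and 3 of 9 others, and for 39.9% of all genes.

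ELF1 (ILMN_1664010; chromosome 13, 40931919 to 41061386) was the member that rose. Its values were 8.41, 8.60 and 8.30 with DMSO and 9.41, 9.01 and 9.29 with vemurafenib. Every treated sample exceeded every control, and the nearest samples were 0.41 apart. Means were 8.44 ± 0.15 and 9.24 ± 0.21 (SD, n = 3 each), a 1.74-fold rise with an adjusted p of 0.0265 in limma. The call was lost without each of the samples DMSO unnumbered, 1 and 2 and vemurafenib unnumbered and 1 (adjusted p from 0.0579 to 0.108), while the change stayed between 0.71 and 0.91 in those fits.

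The ternary complex factors had no call. ELK1 (ILMN_1654289) read 9.26, 9.35 and 9.64 against 9.30, 8.86 and 9.23, with overlapping groups and a change of -0.29 ± 0.19 (SE; limma adjusted p = 0.344). ELK3, which represses genes until ERK phosphorylates it, was dim: 5.26, 4.83 and 5.25 against 4.99, 4.72 and 5.07, a change of -0.19 ± 0.19 (ILMN_1692335; limma adjusted p = 0.532). For ELK3 the SDs of 0.25 and 0.19 were about as large as the difference, and for ELK1 they were 0.20 and 0.24. ELK4 has 5 probes, of which 2 passed the filter. The brighter (ILMN_1771805) read 5.91, 5.63 and 6.53 against 4.58, 5.62 and 5.59, and its groups were separated by only 0.01. Its change of -0.76 ± 0.34 (SE; limma adjusted p = 0.167) was -0.42 without the unnumbered vemurafenib sample, the lowest of the 6. The second kept ELK4 probe (ILMN_2273103) moved by -0.05 ± 0.24 (SE; limma adjusted p = 0.911). The remaining 3 ELK4 probes were detected on 1 or 2 of the 6 arrays, a level at which no change can be read.

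ETS1, whose messenger RNA was read by 2 bright probes, gave 2 answers that differ in sign. The first (ILMN_1687538) read 9.96, 9.74 and 9.62 with DMSO and 10.01, 10.29 and 10.02 with vemurafenib, a change of 0.33 ± 0.17 (SE; limma adjusted p = 0.229) with a gap of 0.04 between the groups. The second (ILMN_2122103) read 9.61, 9.57 and 9.01 against 8.82, 9.14 and 9.59, a change of -0.21 ± 0.25 (SE; limma adjusted p = 0.605) with overlapping groups. Treated minus control gave -0.79 for the unnumbered pair, -0.43 for pair 1 and 0.58 for pair 2. Without both samples numbered 2 this probe was called lower (-0.61; adjusted p = 0.0373), while the first probe stayed at 0.30 (adjusted p = 0.253). Which transcripts each probe covers was not analysed here.

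ETS2 and ETV6 lay at the same level in both groups within their spread. ETS2 (ILMN_1720158) read 5.86, 5.43 and 5.72 against 5.62, 5.46 and 5.68, a change of -0.08 ± 0.17 (SE; limma adjusted p = 0.790). ETV6 (ILMN_1789596) read 7.64, 7.16 and 7.22 against 7.31, 7.36 and 7.16, a change of -0.07 ± 0.18 (SE; limma adjusted p = 0.842). The sign of both changes turned with median centring, to 0.07 for ETS2 and 0.06 for ETV6, so neither has a direction.

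The human ETS family has 18 further genes that the array measures, and 8 of them passed the detection filter. Of these 8, 0 were called with limma, beside 16% of all genes, 1 had an unadjusted p under 0.05, beside 3962 of all 11220 genes, and their median change was 0.04. ELF2, a relative of ELF1, had the largest of these changes, 0.43 ± 0.18 (SE), from 7.97, 7.86 and 7.90 to 8.50, 8.48 and 8.04, with separate groups (limma adjusted p = 0.142). It was called without vemurafenib sample 2 (0.58; adjusted p = 0.0432) and, with ETV3, without both samples numbered 2. The repressor ETV3 changed by -0.34 ± 0.27 (SE), the epithelial factor ELF3 by 0.41 ± 0.25 and ELF4 by -0.16 ± 0.19. GABPA (0.09), the ERK-regulated repressor ERF (0.11), FLI1 (-0.01) and ETV2 (-0.01) were close to 0. Among the 10 ETS genes whose probes failed the detection filter were ERG and the blood-cell factors SPI1, SPIB and SPIC.

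**Figure D2:**
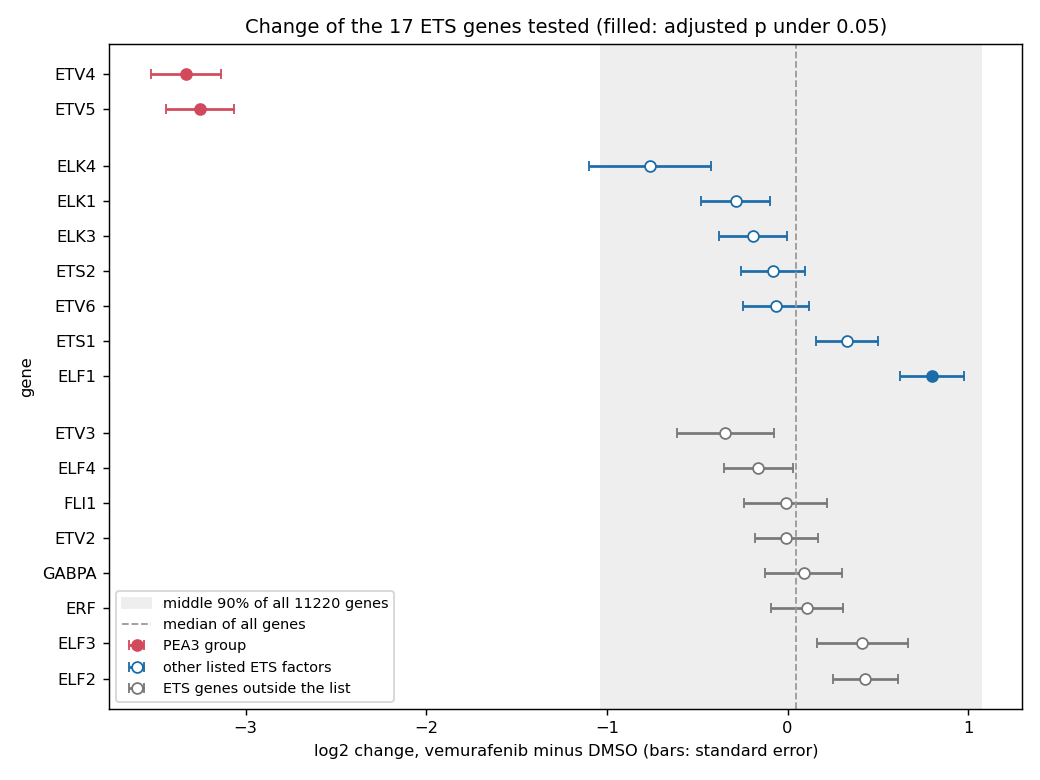
Log2 change (horizontal axis, vemurafenib minus DMSO, bars are standard errors) of the 17 ETS genes tested, by gene on the vertical axis. Filled points have an adjusted p under 0.05; the grey band holds the middle 90% of all 11220 genes, from -1.03 to 1.07, and only ETV4 and ETV5 among these 17 lie outside it.

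Of 11 measured genes that act on PEA3 factors, 2 fell and 9 did not pass (18.2% called, beside 16% of all genes; median change 0.16). The pseudokinases TRIB2 and TRIB3, relatives of the COP1 adaptor TRIB1, were the ones that fell. TRIB2 went from 8.04, 8.40 and 7.65 to 7.22, 6.73 and 6.86, a change of -1.09 ± 0.23 (SE; limma adjusted p = 0.0245), and TRIB3 from 9.84, 9.93 and 9.57 to 8.99, 8.99 and 9.23, a change of -0.71 ± 0.17 (SE; limma adjusted p = 0.0335). Groups were separate for both genes, and both lost their call without each of DMSO unnumbered, DMSO 1, vemurafenib unnumbered and vemurafenib 1 (0 of 11 called). CIC and COP1, named for their role after their values were seen, did not pass. CIC read 6.33, 6.52 and 6.67 against 6.78, 7.01 and 7.41, a change of 0.56 ± 0.21 (SE; limma adjusted p = 0.109), and passed with the replicate number as a block (adjusted p = 0.0355). COP1 changed by 0.23 ± 0.15 (SE; limma adjusted p = 0.341).

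Genes that ERK signalling drives, several of them known CIC targets like the PEA3 genes, fell beside ETV4 and ETV5. Of 13 measured, 8 fell, 0 rose and 5 did not pass, beside 7.95% of all genes lower, and the median change was -1.03. The ERK pathway inhibitor SPRY4 went from 8.70, 8.78 and 7.63 to 4.76, 4.34 and 4.33, where it was not well above background. The size of its fall depends on how background is handled. Over the 17 alternatives its change ran from -4.26 to -2.16 on the log2 scale. With the background correction used here it fell by at least 14.1-fold. This bound sets the bright group's mean against, on each dim array, the higher of the lowest detected signal and the gene's own signal. The ERK phosphatase DUSP6 went from 9.77, 9.79 and 9.68 to 6.61, 6.02 and 7.14, and the inhibitor SPRY2 from 10.79, 10.55 and 10.80 to 7.75, 7.66 and 8.41. For cyclin D1, CCND1, the values were 11.57, 11.64 and 12.15 against 9.26, 8.48 and 9.30. In each of these 4 genes all treated samples were below all controls (limma adjusted p from 0.00123 to 0.00206). The other 4 falls, named after their values were seen, were those of EPHA2, DUSP4, SPRED2 and SPRED1. The changes were -2.44 for EPHA2, -1.03 for SPRED2 and -0.69 for SPRED1. DUSP4 was detected on 0 of 3 treated arrays, so its fall of 3.68-fold is approximate. Its change ran from -2.12 to -0.80 over the 17 alternatives. The 8 falls became 5 without the unnumbered vemurafenib sample, and 0 when the unnumbered and 1 samples were averaged.

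Serum response factor and genes it controls with ternary complex factors or with the coactivators MRTFA and MRTFB gave 9 measured genes. MRTFB rose, MCL1 and IER2 fell, and the remaining 6 did not pass (33.3% called, beside 16% of all genes), with a median change of -0.08. MRTFB went from 4.74, 4.73 and 4.81 to 5.68, 6.01 and 5.64 (change 1.02 ± 0.17, SE; limma adjusted p = 0.0114) and was detected on 1 of 3 control arrays, so the size is approximate. The survival protein MCL1 fell by 0.91 ± 0.16 and the early response gene IER2 by 0.68 ± 0.15 on the log2 scale (SE; limma adjusted p = 0.0140 and 0.0276). EGR1, named after its values were seen, had the largest change of the 9 but did not pass (-1.27 ± 0.57, SE; limma adjusted p = 0.171). Treated minus control was -2.65, -1.90 and 0.75 in the unnumbered, 1 and 2 pairs. EGR1 was called lower without vemurafenib sample 2 and without both samples numbered 2. SRF itself, named for its role, read 9.16, 9.13 and 9.30 against 8.72, 8.59 and 8.80 and did not pass (-0.49 ± 0.15, SE; limma adjusted p = 0.0678). With the replicate number as a block 5 of the 9 were called, beside 29.8% of all genes, SRF (adjusted p = 0.0431) and MRTFA (0.0296) among them, and the 3 calls became 0 without DMSO unnumbered, 1 without DMSO 1 and 1 without vemurafenib 1.

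Among cofactors of ETS proteins, 1 of 16 measured was called (6.25%, beside 16% of all genes), with a median change of -0.05. GABPB1, a subunit that pairs with the ETS protein GABPA, went from 8.43, 8.30 and 8.58 to 7.08, 7.15 and 7.48. The treated samples were all lower, and the change was -1.20 ± 0.18 (SE; limma adjusted p = 0.00856). It passed without each sample in turn (adjusted p up to 0.0474) but not when the unnumbered and 1 samples were averaged (0.142). GABPA, its partner, read 6.32, 5.82 and 6.27 against 5.94, 6.45 and 6.29, with overlapping groups. GABPB2 of the same list, named after its values were seen, did not pass (-0.35 ± 0.16, SE; limma adjusted p = 0.173).

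Of 15 measured genes that have been described as ETS targets, 6 fell, 1 rose and 8 did not pass (46.7% called, beside 16% of all genes; median change -0.47). The chemokine gene CXCL8 changed by -4.75 ± 0.31 (SE), from 10.38, 10.75 and 10.34 to 5.19, 5.64 and 6.41. MYC, the growth regulator, changed by -2.70 ± 0.23 (SE), from 9.35, 9.29 and 8.83 to 6.65, 6.65 and 6.08, and PLAUR, the urokinase receptor, from 9.17, 9.23 and 8.70 to 7.59, 7.59 and 7.12 (-1.60 ± 0.22, SE). The groups were separate for all 3 of these genes (limma adjusted p from 5.98e-04 to 0.00680). The other 3 falls, named after their values were seen, were those of ITGB3, CCND3 and BCL2L1. The heme-degrading enzyme HMOX1 rose by 2.31 ± 0.52 (SE), from 6.14, 6.44 and 7.83 to 9.16, 8.29 and 9.89 (limma adjusted p = 0.0277). Its call was lost without DMSO unnumbered, DMSO 1 or vemurafenib unnumbered. The collagenase MMP1, a classical PEA3 target named after its values were seen, was near background and did not pass (-0.54 ± 0.19, SE; limma adjusted p = 0.0945). MMP3 of the same list, named likewise, changed in the other direction and did not pass either (1.15 ± 0.45, SE; limma adjusted p = 0.124). The 7 calls were 4 without each of DMSO unnumbered, DMSO 1 and vemurafenib unnumbered, and 1 when the unnumbered and 1 samples were averaged.

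**Figure D3:**
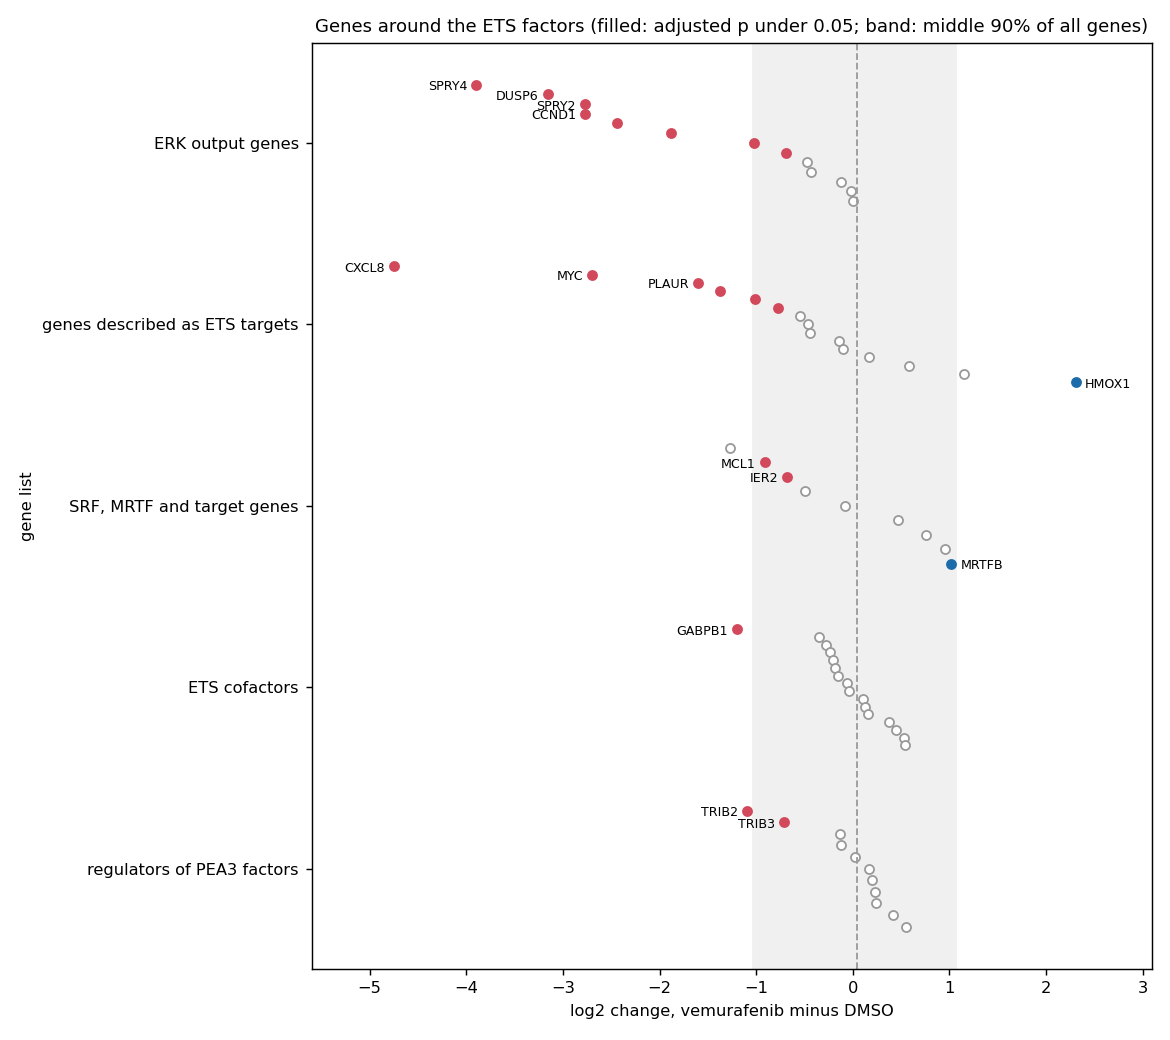
Log2 change (horizontal axis, vemurafenib minus DMSO) of each measured gene in 5 lists around the ETS factors (vertical axis); filled points have an adjusted p under 0.05, red lower and blue higher, and the grey band holds the middle 90% of all genes. Lower calls were 8 of 13 ERK output genes, 6 of 15 genes described as ETS targets, 2 of 9 SRF, MRTF and target genes, 1 of 16 cofactors and 2 of 11 regulators of PEA3 factors, beside 7.95% of all genes; the lists were not tested against each other.

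The genes whose values over the 6 samples lay closest to those of ETV4, each gene set relative to its own DMSO mean, were ACOX2, NT5E, ETV5, MANCR and TGFA. Likeness was the root mean square difference over the 6 samples, which was 0.23, 0.28, 0.37, 0.42 and 0.43 on the log2 scale for these 5. Closest to ETV5 were TGM2, NT5E, DUSP6, MANCR and ACOX2, with differences of 0.22, 0.22, 0.29, 0.29 and 0.33. ACOX2, NT5E and MANCR are in both lists. ACOX2 encodes a peroxisomal oxidase, NT5E a surface nucleotidase, TGM2 a transglutaminase, TGFA a ligand of the epidermal growth factor receptor, and MANCR is a long noncoding RNA. ACOX2, for example, read 9.72, 9.83 and 9.55 with DMSO and 6.06, 6.68 and 6.65 with vemurafenib, and TGM2 read 11.03, 11.01 and 10.21 against 7.70, 7.29 and 7.81. All share the same 6 arrays, and the measure mainly reflects the size of the fall.

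**Figure D4:**
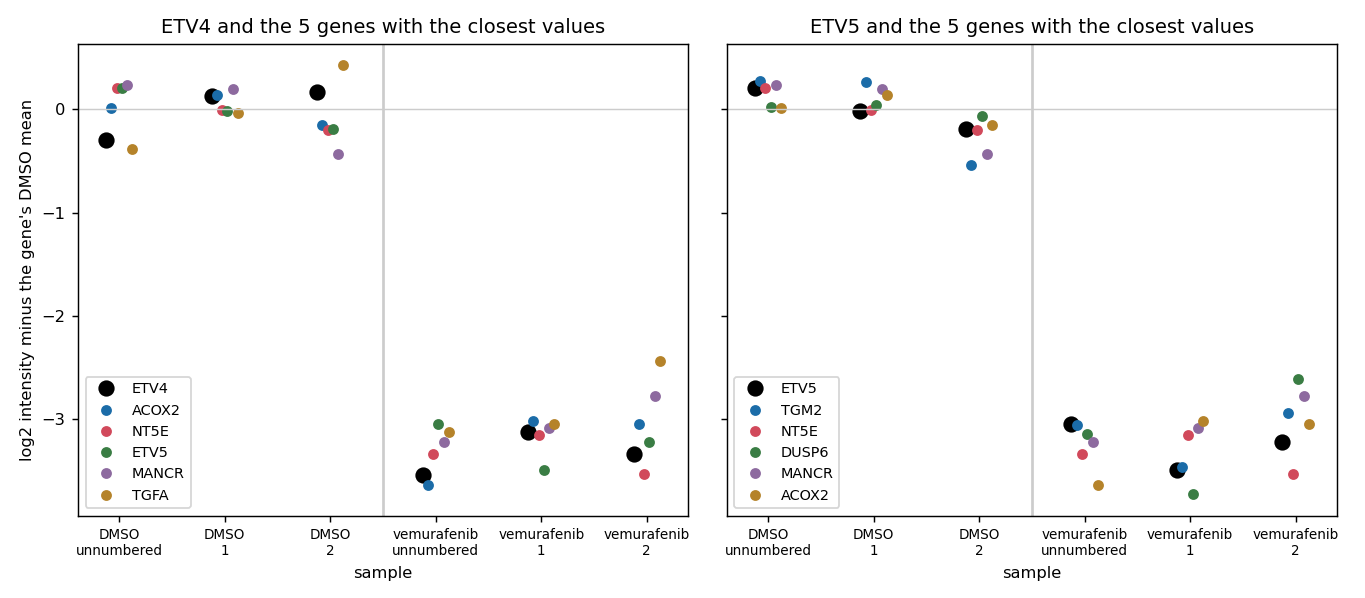
Log2 intensity relative to each gene's DMSO mean (vertical axis) in the 6 samples (horizontal axis) for ETV4 (left, black) and ETV5 (right, black) and the 5 genes closest to each (colours). The treated values of all genes shown lie well below their DMSO level of 0, near those of ETV4 and ETV5.

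**Figure D5:**
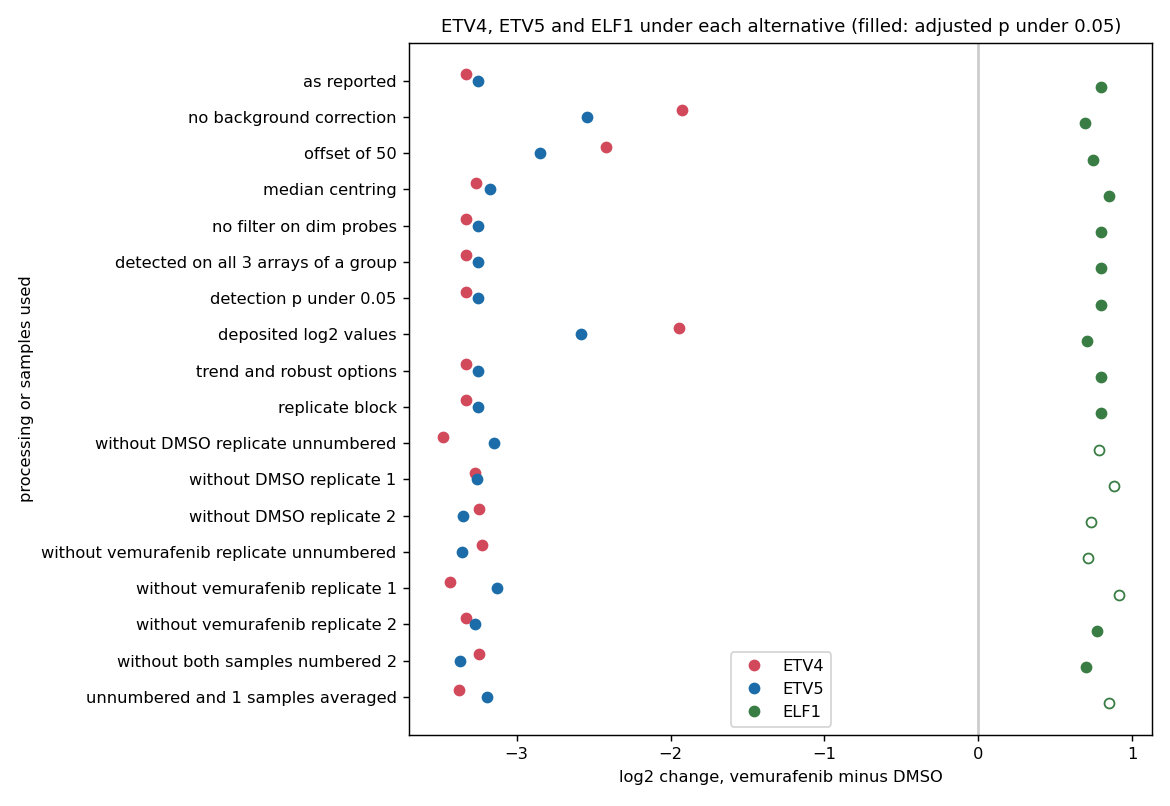
Log2 change (horizontal axis) of the main probes of ETV4, ETV5 and ELF1 as reported and under the 17 alternatives (vertical axis); filled points have an adjusted p under 0.05. ETV4 and ETV5 stay filled throughout, with changes between -3.48 and -1.93 and between -3.37 and -2.54, while ELF1 is open in 6 alternatives.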

How the data were processed

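Biotin-labelled copies of total RNA were hybridised to bead arrays made by Illumina. What the authors deposited is, per the file headers, an intensity and a detection p-value for each probe and array; the values are linear and show no sign of background subtraction or normalization. A second deposited table holds log2 values by an unstated method. They differ by at most 0.0513 from log2 intensities quantile normalized without background correction, and every array has a median of 6.54. Scanner software: not given in the sources used here.

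Intensities were background corrected by normexp, with negative controls inferred from the detection p-values, an offset of 16, with quantile normalization and log2 (limma 3.58.1, R 4.3.3). Of 48107 probes 4 had a missing value, and 18747 that reached a detection p under 0.01 on 3 or more of the 6 arrays were tested with lmFit and eBayes, adjusted by Benjamini-Hochberg. The test was also tried on simulated data that took their means and spreads from these arrays. The simulated samples were drawn independently, so that trial cannot speak for samples that deviate together. Names came from the platform annotation. The number of arrays limits the precision. Deviations of same-numbered samples from their group means correlated at 0.189, 0.351 and 0.523 for the unnumbered, 1 and 2 pairs. Unnumbered and 1 samples correlated across numbers as well (0.352 and 0.260), so the check sets the samples numbered 2 apart more than it shows 3 pairs. The replicate number as a block was an alternative fit.

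Other alternatives changed the background correction, offset, normalization, filter, variance model and samples used. Members, lists and tests were chosen with earlier results of these data known. Named genes were the members, detected ETS relatives, up to 4 called genes of each list with the largest change (or the 2 most abundant) and the 5 closest profiles to ETV4 and ETV5; others are marked in the text.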

Additional observations from a re-analysis of the deposited data

How the results depend on the processing

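The 2 calls of the PEA3 group were 2 in each of the 17 alternatives, including the fit with the replicate block (2 called). The count of other listed ETS factors called, 1 as reported, was 1 with the replicate block. It ranged from 0 to 1 when single samples were left out, and 0 when the unnumbered and 1 samples were averaged. The gene is ELF1 (0.85; adjusted p = 0.178 with averaging). Over the 13 tested probes and 17 alternatives, 206 of 221 values kept direction and side of the threshold, 6 lost their call (all ELF1), 1 gained it (the second ETS1 probe) and 8 changed sign, all of changes that did not pass. With median centring ETV6 was 0.0563, ETS2 0.0717 and the second ELK4 probe 0.0842. That ELK4 probe was 0.11 without both samples numbered 2, and between -0.27 and 0.17 without single samples. Without single samples ETV6 ran from -0.155 to 0.0858 and ETS2 from -0.201 to 0.0154. The causes were not tested. With no filter on dim probes 938 genes were called in all, against 1800, and with the replicate block 3344; leaving out single samples gave 307 to 2670 and averaging 26. Counts over the gene lists, alternatives chosen after seeing the data, ran from 0 to 3 (regulators of PEA3 factors), 0 to 9 (ERK output), 0 to 5 (SRF and targets), 0 to 3 (cofactors), 1 to 8 (ETS targets) and 0 to 2 (other ETS genes). These counts take both directions, and the ERK output count of 9, without both samples numbered 2, includes SPRY1 as a rise. Beside CIC and SRF, and named after their values were seen, RUNX1 (0.54; adjusted p = 0.0513), MRTFA (0.76; 0.0796) and NRP1 (0.58; 0.193) passed with the block (0.0390, 0.0296 and 0.0338). Some or all signals of ETV4, the second ETV5 probe, ELK3, ELK4 and ETS2 were close to background, so the sizes of their changes are uncertain.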
